A study of Mus musculus with 6 samples.

Results

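The genes described here are 5 constant-region genes of the T-cell receptor: Tcrg-C1, Tcrg-C2 and Tcrg-C4 of the gamma chain, Trdc of the delta chain and Trac of the alpha chain. They were listed by symbol, with no threshold on their values, and each symbol was matched to 1 Ensembl gene ID among the 47729 genes counted in every library. The same loci hold 210 other counted genes, which are the V, D and J segments and the further gamma constant Tcrg-C3. RNA of FACS-sorted DN1a/b cells, the earliest double-negative cells of the mouse thymus, was sequenced in 6 libraries from C57BL/6 mice. Control mice (2 libraries) kept RBPJ, the DNA-binding partner of the Notch receptors, throughout. RBPJ uninduced mice (2 libraries) lacked RBPJ per the labels. RBPJ 6 days induced mice (2 libraries) started without RBPJ and then had it switched on by doxycycline, given by injection at 2 mg/ml and afterwards in drinking water at 1 mg/ml. The sources used here do not name the alleles, the promoters behind deletion and induction or the age of the mice, nor say whether doxycycline was also given to Control or uninduced mice, so RBPJ return and doxycycline cannot be told apart in the induced libraries. Nothing in the labels ties a library to its own mouse, and the p-values then reflect how far these particular libraries vary, which may be technical.

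A T-cell receptor is either an alpha-beta or a gamma-delta heterodimer, and each chain joins a variable part, built from V, D and J segments by DNA recombination, to a constant part encoded by a C gene. The gamma locus is a row of cassettes, each with its own V and J segments and its own C gene, and the delta locus lies inside the alpha locus between the alpha V and J segments. Gamma, delta and beta genes are opened and rearranged in early double-negative thymocytes, whereas alpha rearrangement is a later event of the double-positive stage. Constant genes can also be transcribed before any rearrangement, as germline transcripts, and gene counts do not separate these from transcripts of a rearranged receptor.

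The gamma constants resemble each other closely, which matters for how reads are divided among them. On GRCm38, the build named mm10, Tcrg-C1 (ENSMUSG00000076749) covers chr13:19214103-19217024 on the plus strand, Tcrg-C2 (ENSMUSG00000076752) chr13:19304649-19307551 on the minus strand and Tcrg-C4 (ENSMUSG00000076757) chr13:19344558-19352756 on the plus strand. Trdc (ENSMUSG00000104876) covers chr14:54142851-54148868 and Trac (ENSMUSG00000076928) chr14:54220521-54224206, both on the plus strand. The opening 120 bases of exon 1 of the gamma constants, from the GENCODE M21 transcripts, are printed 5′ to 3′ to show where a read can be assigned to a single copy. Capitals mark the bases that differ from Tcrg-C1 at the same position.
Tcrg-C1: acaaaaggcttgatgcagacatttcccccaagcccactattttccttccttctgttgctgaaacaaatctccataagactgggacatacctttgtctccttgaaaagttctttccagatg
Tcrg-C2: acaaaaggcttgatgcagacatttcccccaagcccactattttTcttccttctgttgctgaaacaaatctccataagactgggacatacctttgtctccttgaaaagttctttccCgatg
Tcrg-C3: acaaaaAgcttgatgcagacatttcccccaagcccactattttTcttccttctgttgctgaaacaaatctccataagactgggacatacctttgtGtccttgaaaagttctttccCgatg
Tcrg-C4: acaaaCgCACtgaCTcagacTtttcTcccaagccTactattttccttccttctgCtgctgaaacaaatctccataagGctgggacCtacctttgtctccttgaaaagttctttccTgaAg

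In these windows Tcrg-C2 differed from Tcrg-C1 at 2 positions, Tcrg-C3 at 4 and Tcrg-C4 at 14. Over the whole 330-base exon 1, Tcrg-C2 was 97.3% identical to Tcrg-C1, with 9 mismatches, Tcrg-C3 96.1% and Tcrg-C4 82.1%. The longest stretch without a difference was 104 bases between the Tcrg-C1 and Tcrg-C2 transcripts, 122 bases between Tcrg-C1 and Tcrg-C3, and 29 bases between Tcrg-C1 and Tcrg-C4. Counts of Tcrg-C1, Tcrg-C2 and Tcrg-C3 are therefore uncertain where the authors' counting had to divide or discard shared reads, while Tcrg-C4 can be told from the others over most of its length. Trdc and Trac shared at most 12 identical bases in a row with each other, and at most 11 with any gamma constant.

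Exon 2, which encodes part of the connecting peptide between the constant domain and the membrane, has a different length in each of these gamma constants, and it is shown for that reason. Capitals in Tcrg-C1 mark the 15 bases that Tcrg-C2 lacks.
Tcrg-C1 exon 2: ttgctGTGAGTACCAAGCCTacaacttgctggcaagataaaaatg
Tcrg-C2 exon 2: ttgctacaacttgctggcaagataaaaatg
Tcrg-C4 exon 2: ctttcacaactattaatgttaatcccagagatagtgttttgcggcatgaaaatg
Tcrg-C4 exon 3: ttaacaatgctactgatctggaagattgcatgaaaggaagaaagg

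Exon 2 is 45 bases long in Tcrg-C1 (chr13:19215864-19215908) and 30 bases in Tcrg-C2 (chr13:19305769-19305798). Tcrg-C4 has 2 exons in this place, of 54 bases (chr13:19349536-19349589) and 45 bases (chr13:19350330-19350374). The opening bases of the delta and alpha constants share no such likeness with the gamma constants.
Trdc: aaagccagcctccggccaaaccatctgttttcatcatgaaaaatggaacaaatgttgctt
Trac: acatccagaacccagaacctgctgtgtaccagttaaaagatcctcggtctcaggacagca

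The annotated Trdc transcript is 3865 bases long, and 88.2% of it lies after the coding sequence, against 924 bases for Tcrg-C1, 914 for Tcrg-C2, 985 for Tcrg-C4 and 935 for Trac. The antisense gene Gm43434 shares 96 exonic bases with Trdc and had 0 counts in all 6 libraries. Trdv5, on the other strand, shares 207 and had 3 and 2 counts in Control and 0 in the other 4 libraries. The sources used here do not state whether the counting used strand, and reads of these overlaps then cannot be told apart.

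**Figure D1:**
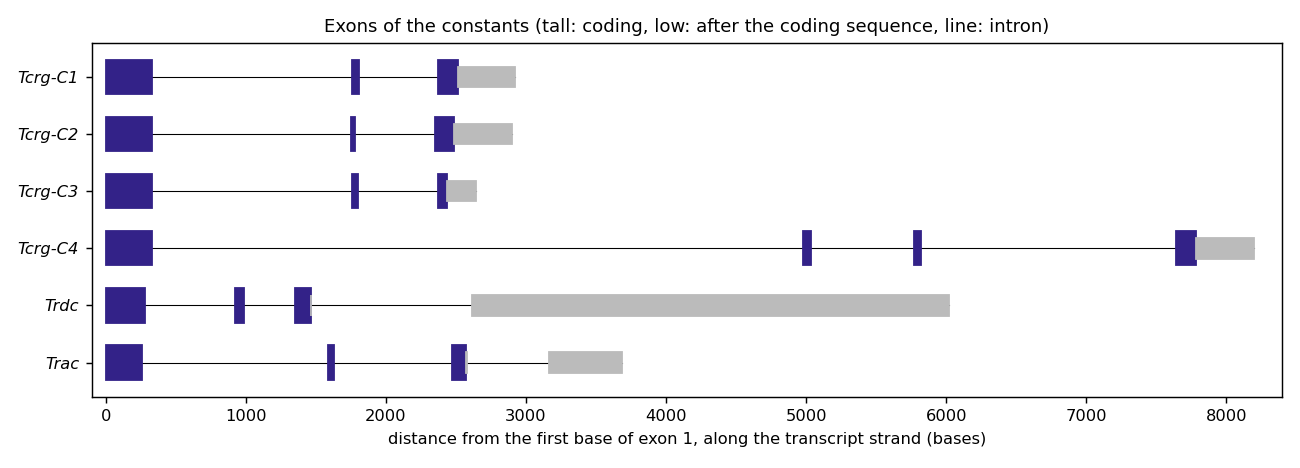
Exons of the 6 constants drawn to scale along their own strand, with the distance from the first base of exon 1 in bases on the x axis and 1 row per gene. Tall boxes are coding, low boxes follow the coding sequence and lines are introns, and the last exon of Trdc, 3403 bases long, stands out against 521 to 556 bases in Tcrg-C1, Tcrg-C2, Tcrg-C4 and Trac.

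Library totals ran from 5098927 to 12932928 counts, with Control replicate 2 and uninduced replicate 1 the shallow pair, and a floor of 3 counts equals 0.228 to 0.531 CPM (counts scaled to the library total with TMM factors, as edgeR gives them). Rbpj itself stood at 74.1 and 72.9 CPM in Control, 28.2 and 30.0 CPM in uninduced and 198 and 203 CPM in induced libraries. Rbpj transcript was thus reduced but still counted in the uninduced libraries, and, with the extent of the deletion not stated, counts inside a deleted stretch were not examined. The early progenitor marker Kit held 372 to 631 CPM in every library. None of 10 early thymic progenitor genes was at 0 in any library. Of these 10, however, 1 (Lmo2) passed as higher and 1 (Cd44) as lower without RBPJ, beside 2.49% and 2.93% of all genes tested. A pair of libraries stood apart from their replicates. Control replicate 2 had far more of the double-positive thymocyte genes Cd8a (80.0 CPM against 3.20 in Control replicate 1), Cd8b1 (56.3 against 3.58) and Cd4 (61.6 against 5.41). RBPJ uninduced replicate 2 had a summed level of 737 CPM over 8 B-lineage genes, against 7.16 to 41.7 CPM in the other 5 libraries, and more mitochondrial ribosomal RNA (16.5% of counts, against 9.26% to 12.4%). Leaving out either library is reported beside the results whose call or size it moves.

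The first comparison asked how the constants differ when RBPJ is missing. All 5 were lower in both uninduced libraries than in both Control libraries, and 3 of the 5, Tcrg-C1, Tcrg-C2 and Trdc, passed the test as lower (edgeR quasi-likelihood test, Benjamini-Hochberg adjusted p under 0.05). Of the 18174 genes tested, 2.93% were lower and 2.49% higher by the same rule, 5.42% in either direction. Both uninduced libraries were below both Control libraries for 22.2% of the tested genes. The median log2 fold change of the 5 constants was -4.67, beside -0.02 over all genes tested. In sorted bulk RNA, fewer cells that express a gene and less RNA per cell cannot be told apart. The number of constants passing moved with the library left out, as did the number called over all genes. None passed when the fit held the 4 compared libraries alone, which leaves fewer libraries to estimate the spread (adjusted p = 0.101 for Tcrg-C1, 0.188 for Tcrg-C2 and 0.109 for Trdc).

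Among the gamma constants, Tcrg-C1, the gamma constant with the lowest coordinate, had 233 and 76 counts in Control (17.7 and 13.4 CPM) and 7 and 29 in uninduced libraries (1.22 and 3.23 CPM). The uninduced libraries thus held a few Tcrg-C1 reads each, 14.3% of the Control mean in CPM. Tcrg-C1 fell by 2.76 on the log2 scale (SE 0.49, 95% interval -3.87 to -1.65, adjusted p = 0.0141). Without Control replicate 1 the fold change was -2.51 (adjusted p = 0.0609).

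Tcrg-C2, its near copy on the other strand, had 99 and 21 counts in Control (7.54 and 3.71 CPM) and 0 and 3 in uninduced libraries (0 and 0.334 CPM). It was thus close to absent from both uninduced libraries, with all 3 reads in the deeper of them. The ratio of pooled levels, Control over uninduced, was 31.4, with a counting interval of 10.5 to 154. In the fit Tcrg-C2 fell by 4.79 (SE 1.02, adjusted p = 0.0291), and without Control replicate 1 the change was -4.14 (adjusted p = 0.118). When Tcrg-C1, Tcrg-C2 and Tcrg-C3, whose reads may be shared, were summed into 1 row, the sum fell by 3.12 (adjusted p = 0.00817).

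Tcrg-C4, the most divergent of the gamma constants, had 63 and 21 counts in Control (4.80 and 3.71 CPM) and 0 and 28 in uninduced libraries (0 and 3.12 CPM). Here the uninduced libraries disagreed: the gene was undetected in replicate 1, where 0 counts allow up to 0.522 CPM, and only just below Control in replicate 2. The fold change of -1.38 (SE 1.11, 95% interval -3.87 to 1.11) did not pass (adjusted p = 0.589). Without uninduced replicate 2 it was -8.32 (adjusted p = 0.00503), a fitted value against 0 counts that depends on the prior count.

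Trdc, the only constant gene of the delta chain, had 173 and 92 counts in Control (13.2 and 16.3 CPM) and 0 and 9 in uninduced libraries (0 and 1.00 CPM). The uninduced mean was 3.41% of the Control mean, with no overlap between the groups. Trdc fell by 4.67 (SE 0.84, adjusted p = 0.0148), and it passed without each of the 6 libraries in turn (adjusted p from 7.63e-05 to 0.0415).

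Trac, the alpha constant, had 20 and 77 counts in Control (1.52 and 13.6 CPM) and 0 and 3 in uninduced libraries (0 and 0.334 CPM). The Control libraries lay further apart on Trac than on any of the other 4 constants. The fold change was -5.22 (SE 1.76, 95% interval -9.19 to -1.26) and did not pass (adjusted p = 0.137). DESeq2 called it (-5.47, adjusted p = 0.0187), as did the fit without a low-count filter (-5.20, adjusted p = 0.0119), and leaving out induced replicate 2 also brought it past the threshold (-5.31, adjusted p = 0.0470). Without Control replicate 2 it was -3.09 (adjusted p = 0.612).

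**Figure D2:**
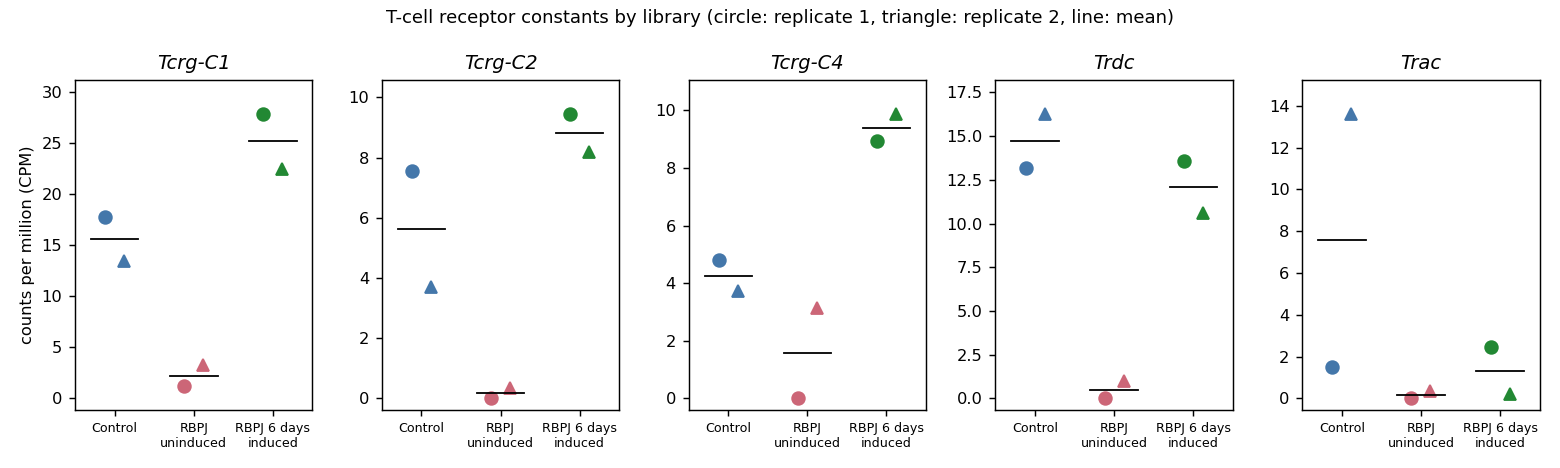
Level of each constant in CPM (y axis, linear, its own scale per gene) in the 3 groups, with a circle for replicate 1, a triangle for replicate 2 and a line at the group mean. Both uninduced points lie below both Control points for all 5 genes, from 0 to 3.23 CPM, and the Trac mean in Control lies between points at 1.52 and 13.6 CPM.

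The next comparison asked which constants were higher once RBPJ had been back for 6 days. Tcrg-C1, Tcrg-C2 and Trdc, the same 3 of the 5, passed as higher in induced than in uninduced libraries, and by this rule 1.55% of all genes tested were higher and 0.413% lower, 1.96% in either direction. The median over the 5 constants was 3.44 on the log2 scale, beside -0.03 over all genes tested. With 1 library left out the number of constants passing moved, as did the number called over all genes. With the 4 compared libraries alone it was 0 for the constants (adjusted p = 0.0663 for Tcrg-C1, 0.0977 for Tcrg-C2 and 0.133 for Trdc). This comparison shares its uninduced libraries with the preceding one, so the 2 directions are not independent of each other.

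Tcrg-C1 had 315 and 241 counts in the induced libraries (27.8 and 22.5 CPM), above every Control and uninduced library. Against the uninduced libraries it rose by 3.44 on the log2 scale (SE 0.50, adjusted p = 0.0123) and passed without each library in turn. Tcrg-C2 had 107 and 88 counts (9.45 and 8.20 CPM), and its pooled level was 43.4 times the uninduced level, with a counting interval of 14.6 to 212. Its fitted change was 5.43 (SE 1.03, adjusted p = 0.0337). Leaving out induced replicate 1 gave 5.36 (adjusted p = 0.0962) and leaving out induced replicate 2 gave 5.62 (adjusted p = 0.0515), so the Tcrg-C2 call needed both induced libraries.

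Tcrg-C4 had 101 and 106 counts (8.92 and 9.88 CPM), the closest pair of induced replicates among the 5 constants. Its change of 2.51 (SE 1.13, 95% interval -0.02 to 5.05) did not pass (adjusted p = 0.327). Without uninduced replicate 2 it was 9.45 (adjusted p = 0.00244), again against 0 counts. Trdc had 154 and 114 counts (13.6 and 10.6 CPM) and rose by 4.39 (SE 0.84, adjusted p = 0.0348). Without uninduced replicate 1 the Trdc rise was 3.63, and without uninduced replicate 2 it was 9.82, fitted against 0 counts.

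Trac was the exception. It had 28 counts in induced replicate 1 (2.47 CPM) and 2 in induced replicate 2 (0.186 CPM), the latter below the 0.334 CPM of uninduced replicate 2. The induced and uninduced groups overlapped, and the change of 2.74 (SE 1.68) did not pass (adjusted p = 0.491), was 0.02 without induced replicate 1 and was 6.65 without uninduced replicate 2 (adjusted p = 0.248). Pooled over the group, its level was 6.68 times the uninduced level, with a counting interval of 2.08 to 34.2, and that interval covers counting error only.

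**Figure D3:**
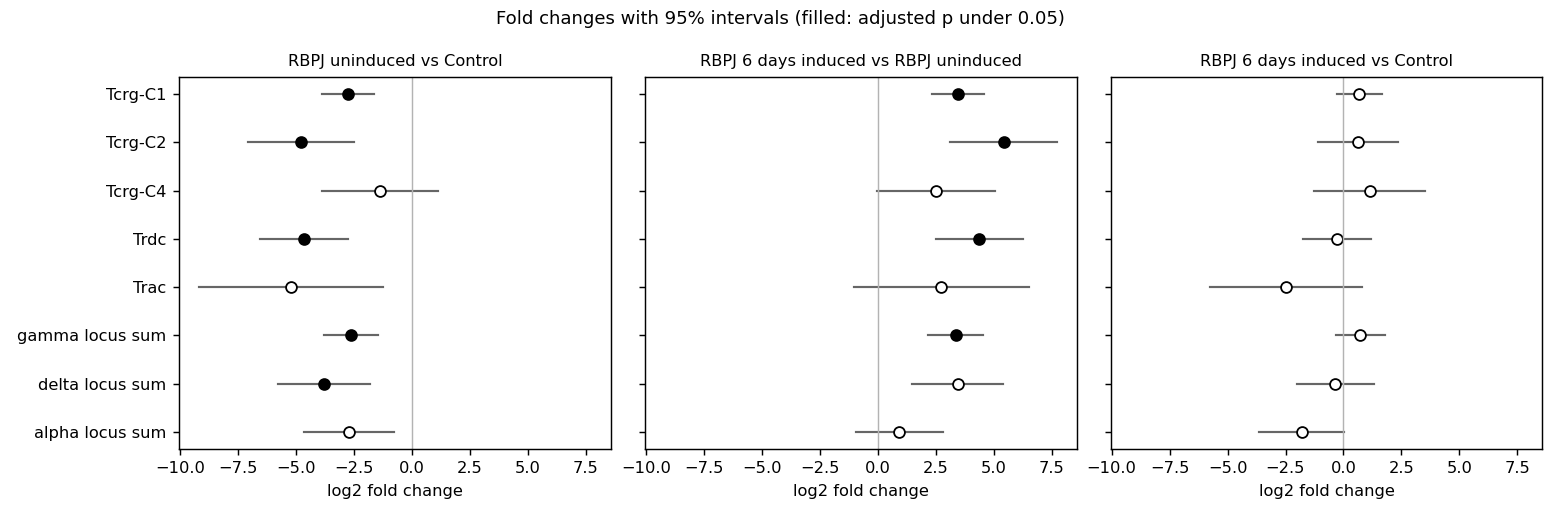
Log2 fold change (x axis) of each constant and of the counts summed over each locus in the 3 comparisons, with 95% intervals from the edgeR fit, filled where the adjusted p is under 0.05. Tcrg-C1, Tcrg-C2, Trdc and the gamma sum are filled on the lower side for uninduced against Control and on the higher side for induced against uninduced, the delta sum is filled in the first panel alone, and no point of induced against Control is filled.

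Set against Control directly, the induced libraries showed how far each constant had come back. None of the 5 passed this test in either direction by edgeR or by DESeq2, and none had an unadjusted p under 0.05, while 0.187% of all genes passed, all of them higher. The 3 gamma constants were above both Control libraries in both induced libraries, as were 20.8% of all genes tested. Tcrg-C1 reached 161% of its Control mean (log2 fold change 0.68, 95% interval -0.30 to 1.66), Tcrg-C2 157% (0.64, -1.09 to 2.36) and Tcrg-C4 221% (1.13, -1.25 to 3.52). Trdc reached 82.3% (-0.28, -1.76 to 1.21) with overlapping groups. Trac reached 17.6% of a Control mean that rests mainly on Control replicate 2 (-2.48, -5.78 to 0.82), and without that library the change was -0.23. These intervals are wide, and the missing calls do not show that induced and Control levels were alike.

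The beta chain constants came back to lower percentages than the gamma constants and Trdc, and to higher ones than Trac. Trbc1, a beta constant, stood at 35.7% of its Control mean after induction and Trbc2 at 41.3%, with log2 fold changes of -1.49 (adjusted p = 0.0666) and -1.28 (adjusted p = 0.0901) against Control. Both differences passed by DESeq2 (adjusted p = 2.69e-06 and 0.000393), with the 4 compared libraries alone (0.00707 and 0.0106) and without either uninduced library. Whether beta and gamma constants differ in this respect was not tested. Of 9 genes for receptor partners (CD3 chains, pre-T alpha, beta constants, Zap70 and Lat), 7 could be tested. Trbc1 and Trbc2 fell without RBPJ and rose on induction. None of the other 5 passed in any comparison by edgeR, which does not show that they were unchanged. Cd3e, which encodes the epsilon chain that carries the receptor to the surface, had a change of -4.24 (adjusted p = 0.0555) without RBPJ. Control replicate 2 gave most of the Cd3e level in Control, 34.5 CPM beside 2.59 in replicate 1. Uninduced replicates 1 and 2 held 1.04 and 0.892 CPM of Cd3e. Cd3g was lower in Control replicate 1 (0.914 CPM) than in uninduced replicates 1 (2.61) and 2 (1.23). Cd247 and Lat were higher in each Control library than in either uninduced library. For Zap70 these groups overlapped, with 2.89 and 8.14 CPM in Control and 0 and 3.12 CPM in uninduced libraries.

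Per kilobase of annotated exon, Tcrg-C1 had the highest mean in every group. This scale takes out exon length, but not reads divided or discarded among the near copies Tcrg-C1, Tcrg-C2 and Tcrg-C3. In Control it stood at 19.2 and 14.5 CPM per kilobase, Trac at 1.63 and 14.6, Tcrg-C2 at 8.25 and 4.06, Tcrg-C4 at 4.87 and 3.77 and Trdc at 3.41 and 4.21. Neighbours in that order of means overlapped in every case. In the induced libraries the order by mean was Tcrg-C1 (30.1 and 24.3), Tcrg-C2 (10.3 and 8.97), Tcrg-C4 (9.06 and 10.03), Trdc (3.52 and 2.75) and Trac (2.64 and 0.199). There Tcrg-C1 lay clear of Tcrg-C2, Tcrg-C2 and Tcrg-C4 overlapped, both lay clear of Trdc, and both Trdc values were above both Trac values. In the uninduced libraries Tcrg-C1 (1.32 and 3.50) overlapped Tcrg-C4 (0 and 3.17), and the other 3 were at 0 in replicate 1 and at or below 0.366 in replicate 2. The long last exon of the Trdc model enters its value: its total of 13.2 and 16.3 CPM in Control was similar to that of Tcrg-C1 before division by length.

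In Control and induced libraries Tcrg-C1 held most of the counts of the 4 gamma constants. It took 57.2% and 64.4% of them in Control and 59.3% and 52.9% in induced libraries, Tcrg-C2 took 24.3%, 17.8%, 20.2% and 19.3%, and Tcrg-C4 took 15.5%, 17.8%, 19.0% and 23.2%. RBPJ uninduced replicate 2 had another division. Of its 60 gamma constant counts, Tcrg-C4 took 46.7% (95% Wilson interval 34.6% to 59.1%) and Tcrg-C2 had 3 of the 60 (1.71% to 13.7%). Its Tcrg-C4 interval lay above those of the Control and induced libraries, which reached at most 27.3%. Its Tcrg-C2 interval lay below theirs except that of Control replicate 2 (11.9% to 25.7%). In uninduced replicate 1 all 7 gamma constant counts fell to Tcrg-C1, and 7 counts allow a Tcrg-C4 share of up to 35.4%. Reads shared among Tcrg-C1, Tcrg-C2 and Tcrg-C3 may have been divided or discarded in counting, which would change all these shares. No test of shares between groups was made.

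**Figure D4:**
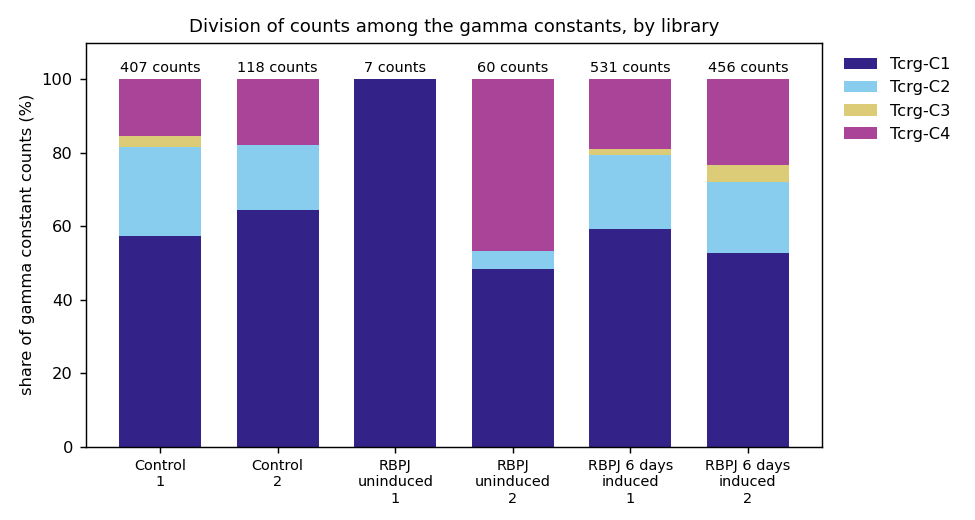
Share of the gamma constant counts (y axis, percent) taken by each of the 4 gamma constants in the 6 libraries, stacked to 100%, with the library's number of such counts above each bar. The Control and induced libraries lie between 15.5% and 23.2% for Tcrg-C4, and uninduced replicate 2 lies at 46.7%.

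Some other genes, picked after their values were seen, were also higher in uninduced replicate 2 than in replicate 1. Il7r, the receptor whose signal opens the gamma locus, stood at 24.3 CPM in it and at 2.96 CPM in replicate 1. Il2ra, a DN2 marker, stood at 23.5 against 0.522 CPM, Blk, a Src-family kinase of B cells and gamma-delta T cells, at 30.4 against 3.48 CPM, and Rag1, a recombinase subunit, at 126 against 10.8 CPM. The B-lineage genes named above were high in the same library. Not every gene of early T cells or of gamma-delta T cells went this way. In replicate 2 Il1r1 stood at 5.13 against 33.6 CPM in replicate 1, Sox13 at 6.13 against 11.5 CPM and Zbtb16 at 24.4 against 38.4 CPM. Bcl2, of the interleukin-7 receptor route, stood at 49.7 against 116 CPM, and Bcl11b was level, at 5.68 against 5.74 CPM. The part of these differences in the Tcrg-C4 counts was not tested.

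Constants made up most of the counts of the gamma and delta loci but few of those of the alpha locus. In the gamma locus they were 70.0% to 93.5% of all counts in the 6 libraries. In the delta locus they were 72.1% to 81.9% in Control and induced libraries and 39.1% of 23 counts in uninduced replicate 2, where 12 of the others fell on the variable segment Trdv2-2, which had 0 counts in the other 5 libraries. In the alpha locus Trac gave 0% to 22.5% of the counts.

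The counts of a locus, matched by symbol prefix, were also summed, so that the sum does not depend on how the reads kept were divided within it. The prefix left Trgv2 and Trgj1 to Trgj4 out of the gamma sum, and shared reads that were discarded are not recovered. The gamma sum fell by 2.64 without RBPJ (SE 0.52, adjusted p = 0.0211) and rose by 3.37 on induction (SE 0.52, adjusted p = 0.0162). The delta sum fell by 3.80 (SE 0.88, adjusted p = 0.0395), and on induction its change of 3.45 did not pass (adjusted p = 0.0884). Both falls were lost without Control replicate 1 (gamma -2.36, adjusted p = 0.0671, and delta -3.86, adjusted p = 0.0730), and the delta fall also without Control replicate 2 (-3.82, adjusted p = 0.0958). The alpha sum changed by -2.73 (adjusted p = 0.112) and by 0.92 (adjusted p = 0.671), and neither passed. The alpha fall without RBPJ rested mainly on Control replicate 2, whose alpha sum was 70.9 CPM. Control replicate 1 held 6.78 CPM, close to uninduced replicate 1 (5.74) and uninduced replicate 2 (5.80). With 1 library left out at a time, the alpha change without RBPJ was as small as -0.33. The alpha fall did pass without Control replicate 1 (-3.59, adjusted p = 0.00182), induced replicate 1 (-2.72, 0.0151) or induced replicate 2 (-2.80, 0.0138), and by DESeq2 (-2.82, adjusted p = 0.0104). For induced against Control the alpha sum changed by -1.81 (adjusted p = 0.982), by -2.64 without Control replicate 1 (adjusted p = 0.0442) and by 0.65 without Control replicate 2.

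Among the delta segments, the joining segment Trdj1 had the most counts, 42 and 19 in Control, 0 and 1 in uninduced and 21 and 25 in induced libraries. Its group means followed the same order as those of Trdc, with libraries at 3.20 and 3.36, then 0 and 0.111, then 1.85 and 2.33 CPM. Both induced Trdj1 values lay below both Control values, whereas these groups overlapped for Trdc. The Trdj1 change without RBPJ of -5.41 (SE 1.59) did not pass (adjusted p = 0.0902). The diversity segment Trdd2 was counted 22 times in Control replicate 1, 11 and 5 times in the induced libraries and in none of the other 3.

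**Figure D5:**
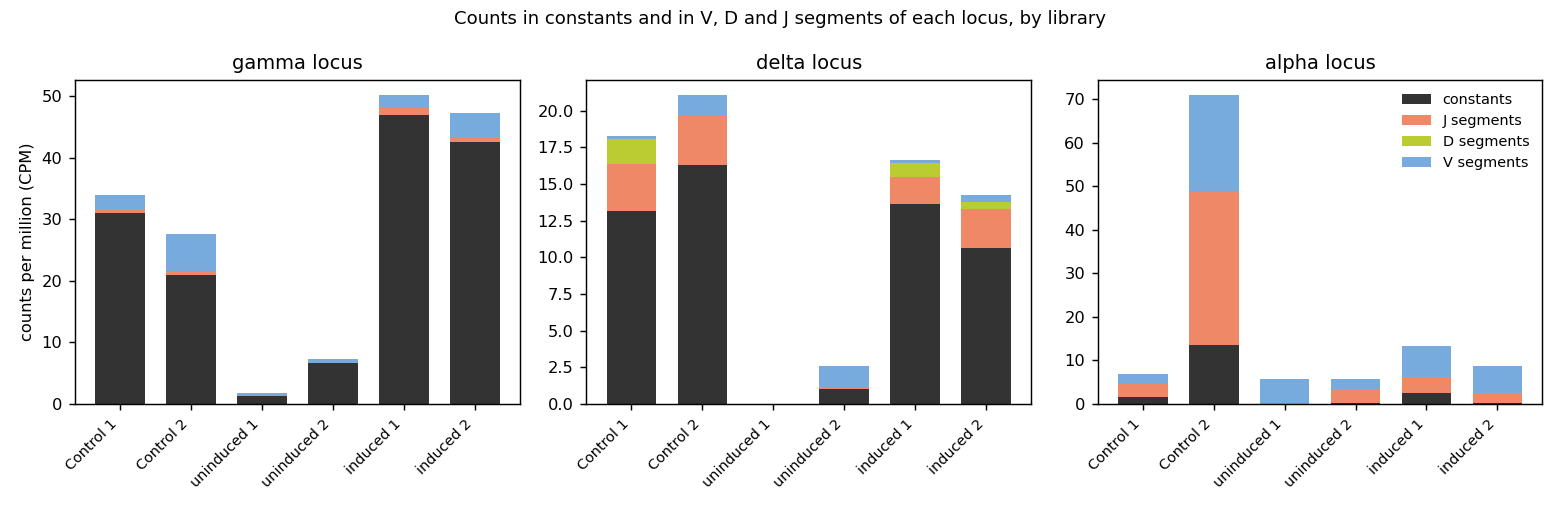
Level in CPM (y axis, linear) of constants and of V, D and J segments of the gamma, delta and alpha loci, stacked for each of the 6 libraries. Constants fill most of the gamma and delta bars. The alpha bar of Control replicate 2, at 70.9 CPM, stands above the 5.74 to 13.2 CPM of the other 5 libraries.

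The alpha locus of Control replicate 2 differed from every other library. It held 125 counts in V segments, 199 in J segments and 77 in Trac, although this library was among the shallowest. Counts fell on 37 of its 60 J segments, against 1 to 8 in the other 5 libraries. Summed over 188 alpha segments it reached 57.3 CPM, against 5.25 to 10.8 CPM elsewhere.

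The summed level of later thymocyte markers was also highest in Control replicate 2. The summed level of 11 double-positive and mature thymocyte genes, none at 0 in any library, was 763 and 1299 CPM in Control, 99.6 and 159 CPM in uninduced and 495 and 479 CPM in induced libraries. Rag1 stood at 256 CPM in Control replicate 2 against 15.7 CPM in replicate 1. Of the 11 genes, 5 fell without RBPJ, among them Arpp21 and Satb1, and 3 rose on induction. Outside Control replicate 2 the marker sum and the alpha segments did not share an order. In replicate 1 of Control, uninduced and induced, 763, 99.6 and 495 CPM of markers stood beside 5.25, 5.74 and 10.8 CPM of segments. That marker order is mainly the order of Satb1 and Arpp21, at 394 and 297 CPM in Control replicate 1 and 299 and 133 CPM in induced replicate 1. Arpp21 was lower in Control replicate 2 (256 CPM) than in replicate 1. In Control replicate 2 Tcrg-C1, Tcrg-C2 and Tcrg-C4 were lower than in replicate 1, and Trdc was at its highest, 16.3 against 13.2 CPM. The part of later thymocytes in the constants' levels was not tested.

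Markers of some other lineages were higher in the uninduced libraries. Over all genes tested 2.49% were higher and 2.93% lower without RBPJ. On induction 1.55% were higher and 0.413% lower, and these shares stand beside every list count given here. Of 8 myeloid genes 5 rose without RBPJ and 1 (Mpo) fell on induction. Of 6 mast cell or basophil genes tested 5 were higher and 1 (Hdc) fell on induction, and of 6 erythroid genes 3 rose and 0 fell. Dendritic cell genes were no such case as a list, with a median of -0.54 without RBPJ and 0.53 on induction over 8 genes. Still, 1 of these 8 (Irf8) rose without RBPJ, from a mean of 13.4 to 54.9 CPM. Summed over 8 myeloid genes, none at 0 in uninduced libraries, the level was 573 and 501 CPM in Control, 4359 and 3281 CPM in uninduced and 748 and 1637 CPM in induced libraries, most of it Mpo (3712 of the 4359 CPM in uninduced replicate 1). Summed over 7 mast cell and basophil genes it was 83.2 and 69.2, then 885 and 571, then 335 and 343 CPM. Erythroid genes (6) summed to 0.990 and 21.1, then 181 and 539, then 148 and 83.6 CPM. The part of these lineages in the constants' levels in CPM was not tested.

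The constants were then set beside the programme of gamma-delta T cells, a list of 17 genes of which 15 could be tested. Without RBPJ 5 of them fell (Sox4, Sox13, Egr3, Il1r1 and Cd27), and 1 rose (Zbtb16, the factor PLZF of innate-like T cells, log2 fold change 2.29, adjusted p = 0.0424). Their median was -0.54. The number lower moved with the library left out, as did the number called over all genes tested. Sox4, a factor of gamma-delta precursors, fell from 371 ± 99.2 to 135 ± 0.631 CPM and rose to 442 ± 87.9 CPM on induction (mean ± SD, n = 2 each), with adjusted p = 0.0079 and 0.00801 (edgeR).

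Sox13, another factor of early gamma-delta cells, did not pass on induction. It stood at 39.6 and 30.8 CPM in Control, 11.5 and 6.13 CPM in uninduced and 12.2 and 6.52 CPM in induced libraries. The induced and uninduced groups overlapped, and both lay below both Control libraries. Whether Sox13 and the constants differ in their change on induction was not tested. Sox13 fell without RBPJ by 2.01 (adjusted p = 0.0349), and did not pass without Control replicate 1 (-1.79, adjusted p = 0.163) or Control replicate 2 (-2.27, adjusted p = 0.0735). On induction its change was 0.10 (adjusted p = 0.951), and the sign turned without uninduced replicate 2 (-0.28) or induced replicate 1 (-0.39). Il17a, the effector cytokine of a mature subset, had 3 counts in induced replicate 1 and 0 in the other 5 libraries.

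Of 12 transcription factors that bind the alpha, delta and gamma enhancers, 3 fell without RBPJ and the same 3 rose on induction. Tcf7 (TCF1) changed by -4.36 and 3.24, Gata3 by -3.09 and 3.02, and Runx3 by -1.32 and 0.98 (adjusted p from 0.000387 to 0.0264, edgeR). The Runx3 rise did not pass without induced replicate 1 (adjusted p = 0.205) or induced replicate 2 (0.0996). The median of the 12 was -0.58 without RBPJ and 0.37 on induction. Gata3 was back at 37.0 ± 0.439 CPM against 38.8 ± 8.86 CPM in Control, and Tcf7 reached 194 ± 26.5 against 420.1 ± 84.1 CPM (mean ± SD, n = 2).

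Of 9 genes of the interleukin-7 receptor and STAT5 route, which acts on the gamma locus, 2 fell without RBPJ and 1 rose. Il2rg, the common gamma chain of the cytokine receptors, fell from 51.1 ± 1.95 to 13.1 ± 2.01 CPM and rose to 35.2 ± 1.104 CPM on induction (adjusted p = 0.00459 and 0.0313). The Il2rg rise did not pass without induced replicate 1 (adjusted p = 0.173) or induced replicate 2 (0.0923). Cish, a STAT5 target and inhibitor, fell by 3.02 (adjusted p = 0.0330). Stat5a, which carries the signal, rose without RBPJ from 60.3 ± 6.53 to 121.5 ± 9.57 CPM (mean ± SD, n = 2, adjusted p = 0.0198), a rise that did not pass without Control replicate 1 (0.0635) or Control replicate 2 (0.153).

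Among 10 genes of V(D)J recombination, 2 fell without RBPJ. Dntt, the TdT enzyme that adds bases at the joints, fell from 825 ± 182 to 15.7 ± 20.3 CPM and rose to 247 ± 5.34 CPM (mean ± SD, n = 2, adjusted p = 0.00769 and 0.0465). The uninduced libraries disagreed on Dntt, at 1.39 and 30.1 CPM, and without uninduced replicate 2 its changes were -9.22 and 7.47 in place of -5.65 and 3.91. Xrcc6, the Ku70 end-joining protein, fell by 1.09 (adjusted p = 0.0333). Rag1 differed between replicates of 2 groups, as given above.

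The genes whose pattern over the 6 libraries lay nearest each constant were ranked by the root-mean-square difference of centred log2 CPM among 10203 genes, as a description without a test. Nearest to Tcrg-C1 were Rgs3 (0.27), Cd7 (0.29) and Tlr7 (0.30). Cd7, a surface protein of early T and NK cells, was also near Tcrg-C2 (0.34), after Actn2 (0.33), with 37.3 and 19.8 CPM in Control, 1.39 and 4.12 in uninduced and 42.0 and 38.2 in induced libraries. Ifit1bl1 (0.20) and Gimap7 (0.23) lay nearest Tcrg-C4, and like it they were at 0 in uninduced replicate 1 and near Control in replicate 2. Igf2bp3, an RNA-binding protein of fetal progenitors, was nearest Trdc (0.34), and Cd4 was nearest Trac (0.66), both at their highest in Control replicate 2. Between the constants themselves the smallest difference was that of Tcrg-C1 and Tcrg-C2 (0.59), then Tcrg-C2 and Trdc (0.66), and Trac lay 1.65 to 2.02 from the others.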

How the data were processed

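The authors deposited, for each of 6 libraries, raw read counts of 47729 Ensembl genes without normalization. The submitters' processing notes name HISAT2, StringTie, HTSeq and mm10. For versions, roles, strandedness and annotation: not given in the sources used here. Symbols, exons and sequences came from GENCODE M21 (GRCm38), in which 47310 gene IDs matched.

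The test was that of edgeR 4.0.16 (R 4.3.3): filterByExpr (minimum count 10, minimum total 15) left 18174 genes, TMM scaled the libraries, and 1 quasi-likelihood fit with a mean per group had 3 residual degrees of freedom. P-values were adjusted by Benjamini-Hochberg across every tested gene, with a threshold of 0.05. All 5 constants passed the filter. Locus sums replaced the genes of a locus, matched by symbol prefix, by 1 row, without Trgv2 and Trgj1 to Trgj4. The fit was tested on simulated data. Intervals are 95% and, for shares, ratios and floors of 3 counts, cover counting error only.

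Replicates differed beyond sampling noise (chi-square per degree of freedom 16.4 to 54.1). Alternatives were DESeq2 1.42.0, other scalings and filters, the 4 compared libraries, a replicate block and each library left out. Members and lists were chosen with earlier results of these data known. Genes named are the members, up to 4 per list past the threshold by smallest p, up to 4 segments per locus by mean CPM, and the 3 nearest in pattern to each constant. Genes outside this rule, among them Zbtb16, Cd27, Il7r, Il2ra, Blk, Rag1, Bcl2, Bcl11b, Cd8a, Cd8b1, Cd4, Kit, Cd3e and Il17a, were named after their values were seen.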

Additional observations from a re-analysis of the deposited data

How the results depend on the processing

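Fitting the 4 compared libraries alone ended every call of the 5 constants and locus sums: without RBPJ, Tcrg-C1 was at -2.80, Tcrg-C2 at -4.85, Trdc at -4.73, the gamma sum at -2.69 and the delta sum at -3.86, and on induction Tcrg-C1 was at 3.46, Tcrg-C2 at 5.44, Trdc at 4.43 and the gamma sum at 3.39. It also ended both calls of Gata3 and Dntt, the Runx3 and Il2rg rises on induction and the Stat5a rise and Sox13 fall without RBPJ. DESeq2 called Trac (-5.47) and the alpha sum (-2.82) without RBPJ and the delta sum on induction (3.54). With no low-count filter Trac (-5.20), the alpha sum (-2.69, and -1.72 for induced against Control) and the delta sum on induction (3.51) were called. Adding Trgv2 and Trgj1 to Trgj4 to the gamma sum, an alternative chosen after seeing the data, kept its calls.

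Leaving out 1 library at a time gave, without RBPJ, -3.69 to -2.33 for Tcrg-C1, -8.74 to -4.11 for Tcrg-C2, -8.32 to -0.51 for Tcrg-C4, -10.1 to -3.90 for Trdc, -9.09 to -3.09 for Trac, -4.04 to -2.08 for the gamma sum, -10.5 to -2.98 for the delta sum and -3.59 to -0.33 for the alpha sum. On induction it gave 4.72 to 9.36 for Tcrg-C2, 1.64 to 9.45 for Tcrg-C4, 3.63 to 9.82 for Trdc, 0.02 to 6.65 for Trac and 2.64 to 10.2 for the delta sum. For induced against Control the alpha sum ran from -2.64 to 0.65, turning to 0.65 without Control replicate 2. Sox13 on induction ran from -0.39 to 0.67, turning to -0.28 without uninduced replicate 2 and to -0.39 without induced replicate 1.

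Genes called without RBPJ were 985, and 1859 by DESeq2, 1540 with no filter, 219 with 4 libraries and 445 to 2000 with 1 library left out. On induction they were 357, and 1238, 989, 71 and 171 to 1374. For induced against Control they were 34, and 228, 304, 177 and 30 to 337.

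Replicate numbers did not pair the libraries (correlations of deviations -0.04 to 0.03). With the replicate block, 108 genes were called for induced against Control, the delta sum on induction was called (3.69, adjusted p = 0.0309), and no call of the 5 constants changed. Trac on induction gave no value with 4 libraries, where it did not pass the filter. With 1 library in a group, that library is assumed to vary like the others. Depth sets a floor: 0 counts allow up to 0.522 CPM in uninduced replicate 1.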

Other observations

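Some segments of the gamma and alpha loci had counts in some libraries and none in others. Tcrg-V5, a variable segment of the gamma locus, had 9 and 10 counts in the induced libraries (0.795 and 0.932 CPM) and 0 in the other 4, which allow up to 0.228 to 0.531 CPM. Tcrg-V6 had 7 and 10 counts in the induced libraries, 1 and 8 in Control and 0 in both uninduced libraries. Tcrg-V1 had 21 counts in Control replicate 1 and 0 in Control replicate 2, with 3 to 9 in each of the other 4. Trav7-4, an alpha variable segment, had 21 counts in uninduced replicate 1 and 3 in uninduced replicate 2, and 0 in the other 4 libraries. The joining segment Traj23 had 23 and 2 counts in the induced libraries, 9 and 8 in Control and 0 in the uninduced libraries.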
